A study of Rattus norvegicus with 6 samples.

Results

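A group of 10 genes that assist the folding of secreted and membrane proteins in the endoplasmic reticulum (ER) was followed in rat beta cells after a fast. They were 4 peptidyl-prolyl isomerases (Fkbp2, Fkbp11, Fkbp14 and Ppib), both lectin chaperones of the calnexin cycle (Calr and Canx), the secreted ER proteins Manf and Creld2, the Hsp70-like protein Hspa13 and Mesd, a chaperone of the LDL receptor family. A member was any gene among these symbols to which the array annotation assigned a probe set, that is, a group of short probes against 1 transcript, with no other gene named beside it. All 10 symbols were found, among 14217 genes, on 16 of 31042 probe sets. Each gene is given by its brightest probe set, taken by the mean of all arrays, and the others served as a check. The samples were beta cells sorted by fluorescence (FACS) from male Wistar rats of 10 weeks. The rats of the fed group ate ad libitum and those of the fasted group had no food for 24 h, with 3 isolates per group. Each isolate was a pool of 5 rats from an isolation of its own and was hybridized on 1 array. Sorted cells were snap frozen, and RNA was extracted for all isolates together. A pool hides the spread between single rats, and a minority of the sorted cells were not insulin-positive by the labels.

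Proteins that enter the ER fold with the help of enzymes that act on different steps. Prolyl isomerases turn the slow cis-trans step at proline bonds. Calreticulin and calnexin hold glycoproteins that still carry a glucose on their sugar chain, and release them for another attempt or for export. MANF and CRELD2 are soluble ER proteins that can be secreted and whose genes are known targets of the unfolded protein response (UPR), the transcriptional answer to a load of unfolded protein. A beta cell places proinsulin, a protein with disulfide bonds, into this compartment at a high rate, and more so after a meal.

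The sequence best known to link such genes to the UPR is the ER stress response element (ERSE), CCAAT, then any 9 bases, then CCACG. It was looked for on both strands of RefSeq promoter windows (assembly GRCr8), which run from 250 bases before to 50 bases after the annotated start of a gene. A window was held for 9 members, all but Manf. The stretches of the 3 members with a match are shown because these members changed by different amounts after the fast. Capitals mark the ends of the element. In Creld2 and Calr the element lies on the opposite strand, so the printed strand reads CGTGG before ATTGG.

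Creld2, chr7:121789199-121789297, plus strand, 185 to 87 bases before the start: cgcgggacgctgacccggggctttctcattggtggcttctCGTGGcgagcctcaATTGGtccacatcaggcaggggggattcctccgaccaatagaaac

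Calr, chr19:40213117-40213193, plus strand, 250 to 174 bases before the start: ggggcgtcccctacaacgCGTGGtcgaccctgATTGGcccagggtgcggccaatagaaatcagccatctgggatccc

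Canx, chr10:35158029-35158107, minus strand, 250 to 172 bases before the start: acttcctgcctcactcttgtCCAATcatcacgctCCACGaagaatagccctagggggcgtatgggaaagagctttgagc

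The element was found in 22 of 33469 promoter windows, or 0.0657%, and in 3 of the 9 held for members. The related ERSE-II, ATTGG, then 1 base, then CCACG, was in 0 of the 9 member windows and in 0.0508% of all. The 8-base motifs TGACGTGG and TGACGTCA were also in 0 member windows, against 0.595% and 1.83% of all windows. The short motif CCACG, which is part of both elements, was in 6 member windows and in 31.6% of all, and CCAAT in 6 and in 37.5%. A match is a run of letters and not a measured binding site, and the windows of Fkbp2, Fkbp11, Fkbp14, Ppib, Hspa13 and Mesd only lack the full element within these 300 bases.

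The authors deposited linear intensities from dChip. The median intensity was 20.2 to 21.8 on the fed arrays and 17.1, 17.8 and 21.0 on the fasted ones, and the median log2 change over all probe sets was -0.20. Fasted replicate 1 had the lowest median and the highest ratio of 3′ over 5′ control probes for beta-actin (2.40, against 1.76 to 2.05 on the other arrays) and Gapdh (1.22, against 0.972 to 1.16). Of 8 measured beta cell markers all were brighter than the median probe set and 0 passed the thresholds below, with Ins1 at 5719 to 6200 in fed and 5783 to 6299 in fasted rats. Markers of other pancreatic cells were also bright. The summed intensity of 21 acinar markers was 83060 to 91591 in fed and 74668 to 88645 in fasted rats, and the groups overlapped. Acinar cells are rich in ER. Of these 21 markers 2 were lower by the thresholds below and 19 were not called, and their median log2 change was -0.059. Over all genes 9.51% were lower. The 2 were the acinar transcription factors Ptf1a (46.0, 29.4 and 54.9 in fed, 11.9, 10.7 and 16.9 in fasted rats) and Bhlha15 (74.0, 46.1 and 81.0 against 33.8, 31.2 and 44.0). The summed intensity of 4 measured duct markers was 353 to 403 in fed and 430 to 536 in fasted rats, with no overlap. Of these Krt19 was higher by the thresholds below (log2 change 0.70). Glucagon (Gcg) was highest on fed replicate 2, at 7629, with 3532 to 5769 on the other arrays. On that array 8 of the members had their lowest fed value, and the same share over all genes was not computed. The median log2 deviation of all genes from their own means was 0.092 there, 0.11 on fed replicate 1 and 0.095 on fed replicate 3. Ins1 and many acinar markers lay in the upper range of the table, whose highest value was 7629. For acinar genes in its human data the paper proposes probe saturation, where signal no longer follows the amount of mRNA. Whether this held here was not tested, so a stable acinar sum or Ins1 does not show a stable share of cells. The part of other cell types in the changes below was not tested, and fewer cells of a type cannot be told apart from less RNA per cell in such samples.

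Most of the 10 genes had a lower intensity after 24 h of fasting. A gene was called where limma gave it an unadjusted p under 0.05 and a change of 1.5-fold or more. By this rule 6 were lower (Fkbp2, Fkbp11, Ppib, Calr, Manf and Creld2), 0 were higher and 4 did not pass (Fkbp14, Canx, Hspa13 and Mesd). Over all genes 9.51% were lower (8.43% of all probe sets, and 11.2% of the genes brighter than the median probe set) and 2.29% were higher. All 10 members were brighter than the median probe set. On 9 members the 3 fasted arrays all lay below the 3 fed arrays, against 21.2% of all genes. The median log2 change of the members was -0.65, beside -0.19 over all genes. No member passed an adjusted p under 0.05 in limma (0.155 to 0.457), nor did any of the 31042 probe sets, of which 4622 had an unadjusted p under 0.05. An exact permutation test of a single gene cannot give a p below 0.10 at this group size.

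**Figure D1:**
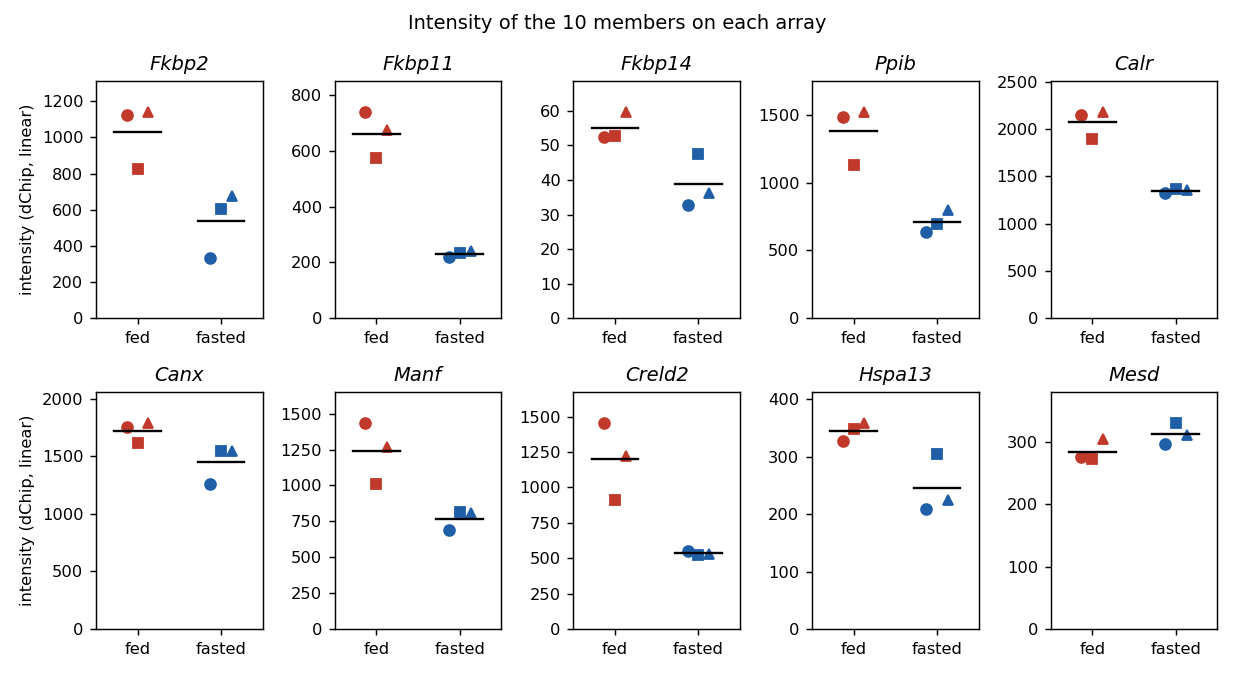
Linear dChip intensity of each member (1 panel per gene, axis from 0) for fed (red) and fasted (blue) rats, with replicate 1 as a circle, 2 as a square and 3 as a triangle, and bars for the means. Fasted points lie below all fed points in every panel but that of Mesd, where 297 to 331 in fasted rats overlaps 272 to 305 in fed rats.

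Of the prolyl isomerases, Fkbp11 fell the most. It is a membrane-anchored FK506-binding protein of secretory tissues. Its intensity was 740, 574 and 674 on the fed arrays and 220, 233 and 240 on the fasted ones. Every fed value was far above every fasted one, and the fasted arrays lay close to each other. On the log2 scale the change was -1.52 (standard error 0.11, 95% interval -1.79 to -1.24, adjusted p = 0.155 from limma), so that 35.0% of the fed level was left. Fkbp11 passed both thresholds under all 17 other settings of the analysis.

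Ppib encodes cyclophilin B, an isomerase of the other large family, which also takes part in collagen folding. It measured 1487, 1129 and 1522 in fed and 639, 697 and 799 in fasted rats. The groups stood clear of each other. On the log2 scale Ppib changed by -0.95 with a standard error of 0.15 (limma, adjusted p = 0.164), and it too passed under all 17 settings.

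Fkbp2, a small soluble FK506-binding protein of the ER, measured 1124, 826 and 1141 in fed and 332, 605 and 677 in fasted rats on its brightest probe set. Fasted replicate 1 lay well below the other fasted arrays, and the groups did not overlap. The change was -0.99 on the log2 scale, with a standard error of 0.29 (limma, adjusted p = 0.264). On the second probe set of Fkbp2 the values were 814, 657 and 824 against 423, 516 and 483, a change of -0.69 on the log2 scale with a standard error of 0.13 (limma, adjusted p = 0.176), and this one also passed both thresholds. Probe set 3 of Fkbp2 went the other way, with 18.6, 24.4 and 19.6 in fed and 29.9, 38.8 and 27.2 in fasted rats. It is dim, its name carries the array maker's mark for probes that can bind other transcripts (x_at), and its log2 change of 0.61 had an adjusted p of 0.351 from limma. With the mean of all 3 probe sets Fkbp2 had a log2 change of -0.36 and did not pass the thresholds. On its brightest probe set Fkbp2 was no longer called when fed replicate 1 or fed replicate 3 was left out, with an unadjusted p of 0.0502 and 0.0512 by limma.

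Fkbp14, an FK506-binding protein known for its part in collagen folding, was dim. Its intensities were 52.5, 52.6 and 59.7 in fed and 32.7, 47.5 and 36.1 in fasted rats. The fasted arrays were all lower, but fasted replicate 2 came close to the fed ones. The log2 change of -0.52, with a standard error of 0.20 (limma, unadjusted p = 0.0421, adjusted p = 0.321), did not reach 1.5-fold with all arrays, and was -0.67 without fasted replicate 2, where it passed.

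The lectin chaperones differed in the size of their change. Calr, the soluble calreticulin, which also binds calcium in the ER, measured 2146, 1897 and 2179 in fed and 1322, 1367 and 1353 in fasted rats. The fasted values lay close together, and all were below the fed ones. Calr changed by -0.62 on the log2 scale (standard error 0.078, 95% interval -0.81 to -0.43, adjusted p = 0.155 from limma), which is close to the 1.5-fold threshold (0.58 on the log2 scale), and Calr fell short of that fold without fed replicate 3 (-0.58).

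Canx, the membrane-bound calnexin, measured 1757, 1619 and 1792 in fed and 1261, 1548 and 1549 in fasted rats on its brightest probe set. The groups did not overlap, but fasted replicates 2 and 3 came close to the lowest fed array. The fitted change was -0.25 on the log2 scale (standard error 0.10, 95% interval -0.50 to 0.0021, limma, unadjusted p = 0.0514, adjusted p = 0.338), near the median of all genes. On this probe set the interval leaves out a fall of 1.5-fold. The second probe set measured 1663, 1486 and 1566 against 910, 1413 and 1312 (log2 change -0.40), and the one after it 709, 682 and 626 against 252, 657 and 692 (log2 change -0.47). On both of these fasted replicate 1 was far below the other fasted arrays. Without it the log2 changes were -0.21 on the former, 0.0060 on the latter and -0.15 on the brightest.

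**Figure D2:**
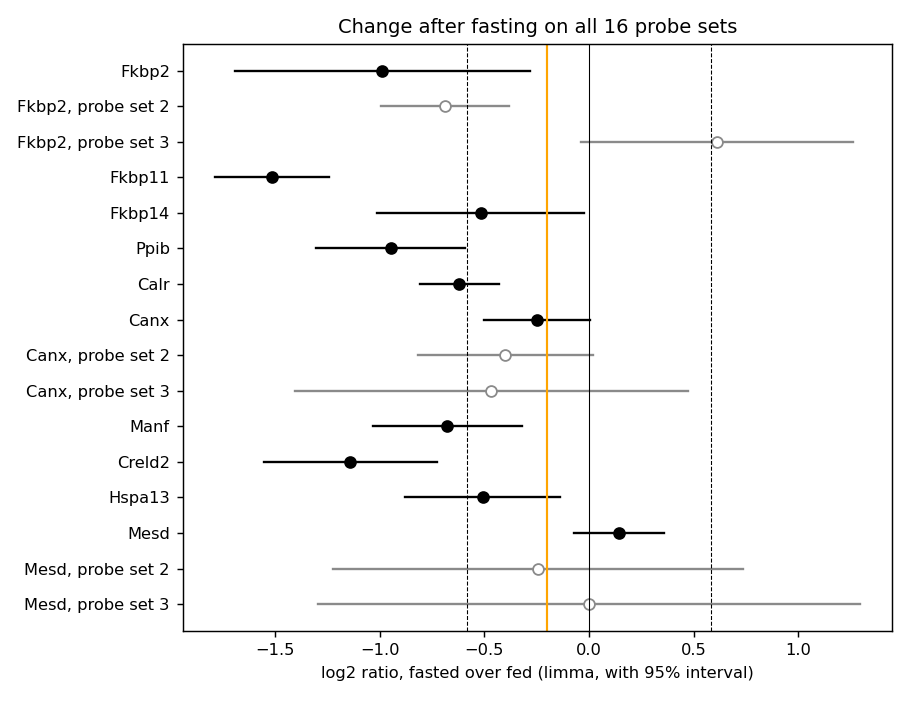
Log2 ratio of fasted over fed for all 16 probe sets of the members, with the 95% interval from limma; filled points are the brightest probe set of a gene and open grey points the others. Dashed lines mark 1.5-fold and the orange line the median of all probe sets, -0.20. Fkbp11 lies farthest to the left at -1.52, and the intervals of all Canx and Mesd probe sets reach 0.

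Both secreted proteins were lower. Creld2, a cysteine-rich protein with epidermal growth factor-like repeats, measured 1457, 910 and 1225 in fed and 547, 523 and 528 in fasted rats. The fed arrays spread widely while the fasted ones lay close together. Creld2 changed by -1.14 on the log2 scale (standard error 0.17, 95% interval -1.56 to -0.73, adjusted p = 0.155 from limma), or 45.3% of the fed level. Manf, which binds the ER chaperone BiP and acts as a survival factor when released, measured 1438, 1012 and 1270 in fed and 689, 814 and 806 in fasted rats. Its groups did not overlap. Its change was -0.68 on the log2 scale with a standard error of 0.15 (limma, adjusted p = 0.199), and -0.56 without fed replicate 1, where it fell short of 1.5-fold. In both genes fed replicate 2 was the lowest fed array. When linear means were compared with unequal variances, the unadjusted p of Creld2 was 0.0521 and that of Manf 0.0518, and neither passed.

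Hspa13, an ER-associated relative of Hsp70, measured 328, 349 and 360 in fed and 210, 304 and 225 in fasted rats. All fasted arrays were lower, with fasted replicate 2 closest to the fed ones. Its change was -0.51 on the log2 scale with a standard error of 0.15 (limma, unadjusted p = 0.0151, adjusted p = 0.269), short of 1.5-fold, and was -0.67 without fasted replicate 2, where it passed.

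Mesd was the only member with a positive log2 change. Its protein prepares receptors of the LDL receptor family, such as the Wnt coreceptors, for export. It measured 276, 272 and 305 in fed and 297, 331 and 312 in fasted rats, and the groups overlapped. On the log2 scale the change was 0.14 (standard error 0.089, 95% interval -0.074 to 0.36, adjusted p = 0.457 from limma). The second probe set measured 116, 125 and 126 in fed and 52.7, 136 and 154 in fasted rats, so that fasted replicate 1 again stood apart. Its log2 change was -0.24 with all arrays and 0.24 without that array. Probe set 3 of Mesd was close to background, with 3.51 to 10.0 in fed and 3.38 to 9.75 in fasted rats.

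Whether the members changed by unlike amounts was asked within each array, where a common scaling of an array has no part. On each array the log2 intensity of a member was set against the median of the other 9, and the groups were compared by an exact permutation test, two-sided. Its smallest p here is 0.10, which Benjamini-Hochberg adjustment over 10 comparisons cannot lower, so that no member could pass. Fkbp11 was at -0.57 relative to the others on the log2 scale, with no overlap between the groups (exact permutation p = 0.10, adjusted 0.20). Mesd stood 1.09, Canx 0.93, Calr 0.56 and Manf 0.50 higher in fasted than in fed rats relative to the others, also with no overlap and with the same p each. The other 5 members had groups that overlapped. The median of the others is, however, the level of the member that stands in the middle, which was Fkbp2, Creld2 or Manf on every array, so that each member was in effect set against genes that fell strongly.

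The comparison was therefore repeated, after these values were seen, against the mean log2 intensity of the other 9, to which every member adds equally. Fkbp11 was at -0.90, Creld2 at -0.49 and Ppib at -0.27 relative to the others, and Mesd and Canx stood 0.94 and 0.50 higher, each with no overlap between the groups (exact permutation p = 0.10, adjusted 0.20). Calr and Manf differed from the mean of the others by 0.092 and 0.029, with overlapping groups and exact permutation p of 0.40 and 0.80. Fkbp2 was at -0.32, with fasted replicate 1 the lowest, and Fkbp14 and Hspa13 were at 0.20 and 0.22, all with overlap. On the brightest probe sets Fkbp11 at the low end and Canx and Mesd at the high end were thus found against either reference. The place of Calr and Manf depended on the reference, and Fkbp2 and Ppib changed sign.

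**Figure D3:**
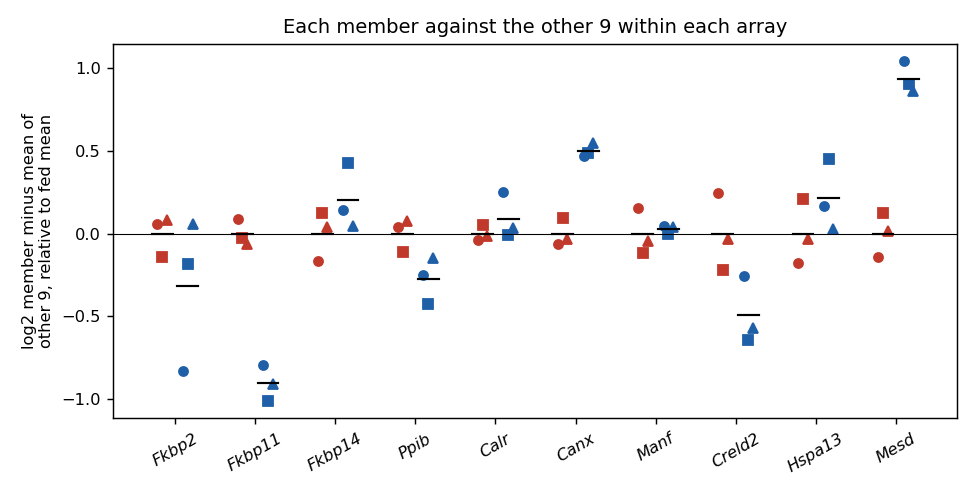
Log2 intensity of each member minus the mean of the other 9 on the same array, set to 0 at the fed mean, for fed (red) and fasted (blue) rats with replicate 1 as a circle, 2 as a square and 3 as a triangle; bars are group means. In fasted rats Fkbp11 lies at -0.90 and Mesd and Canx at 0.94 and 0.50 with no overlap, while Calr and Manf lie near 0.

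The scaling of the arrays set how many members passed. With quantile normalization the median of all probe sets was -0.021 and that of the members -0.51, and with every array set to the same 75th percentile these were 0.011 and -0.40. Under each of these scalings 4 members were lower, Fkbp2, Fkbp11, Ppib and Creld2, and Calr and Manf fell short of 1.5-fold with log2 changes of -0.49 and -0.53 after quantile normalization and -0.38 and -0.43 after scaling. Over all probe sets 4.82% and 4.27% were then lower by the same rule, and lower calls made up 54.2% and 48.2% of all calls against 78.0% as deposited. The fasted arrays all lay below the fed ones on 6 members under both scalings, the 4 just named with Calr and Manf, against 13.3% of all genes with quantile normalization and 10.9% with a common 75th percentile. Canx was at -0.14 and -0.0067, and Mesd at 0.26 and 0.39.

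**Figure D4:**
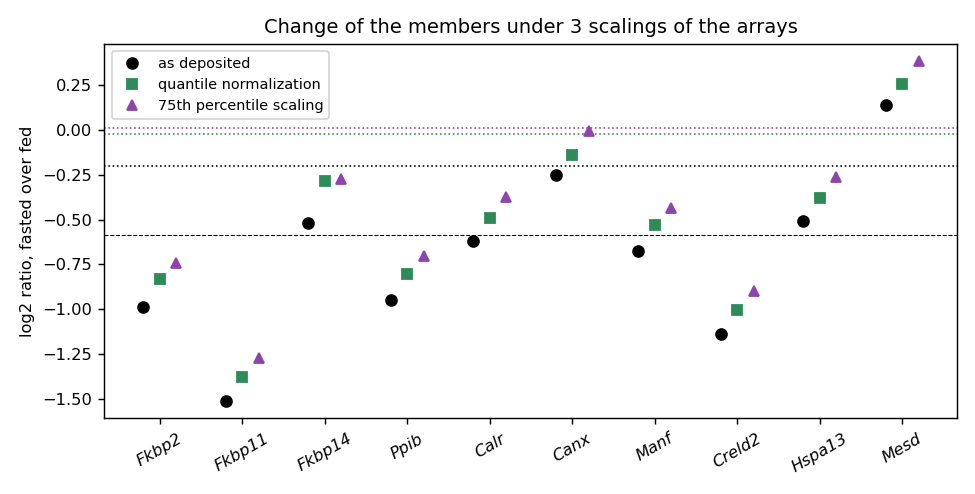
Log2 ratio of fasted over fed for each member with the intensities as deposited (black circles), with quantile normalization (green squares) and with a common 75th percentile (purple triangles); dotted lines of the same colours are the medians of all probe sets, and the dashed line marks 1.5-fold lower. The medians move from -0.20 to -0.021 and 0.011, and the brightest probe sets of Fkbp2, Fkbp11, Ppib and Creld2 stay below the dashed line under all 3.

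Other genes of ER folding had lower intensities as well. As deposited, counts in the lists below stand beside the 9.51% of all genes that were lower (11.2% of the brighter ones). List medians stand beside -0.19. Counts under the scalings stand beside 4.82% of all probe sets with quantile normalization and 4.27% with a common 75th percentile. Those without 1 replicate stand beside 4.66% to 6.43% of all probe sets, but 17.9% without fasted replicate 3. Because the scalings shift all genes, each median is also given with quantile normalization and then with a common 75th percentile. All 11 measured genes of the ER Hsp70 and Hsp90 system had a negative log2 change, beside 9521 of all 14217 genes. Of the 11, 5 were lower and 0 higher, with a median log2 change of -0.50 (-0.29 and -0.25 under the scalings). The lower ones included Sdf2l1, a cofactor of ER J-proteins (log2 change -1.59), Hyou1, an Hsp70-like nucleotide exchange factor (-1.17), and Dnajc3, an ER J-protein (-0.95). Hspa5, which encodes BiP, the partner of Manf, was not among those that passed, with 5110, 4319 and 4515 in fed and 3479, 4077 and 3744 in fasted rats (log2 change -0.30). Of 20 disulfide isomerases and oxidases 5 were lower and 0 higher, and the median was -0.45 (-0.32 and -0.21 under the scalings). Of these Pdia6 (-0.73) and P4hb (-0.76) passed, though not with a common 75th percentile (-0.48 and -0.51), and Ero1b, which reoxidizes disulfide isomerases, did not reach 1.5-fold (-0.52), except without fed replicate 2 (-0.60). With a common 75th percentile the count of lower genes among the 20 was 2, beside 4.27% of all probe sets.

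Around the lectin chaperones, 7 of 13 measured genes of the calnexin cycle and of glycan trimming were lower and 0 higher, and the median was -0.63 (-0.51 and -0.44 under the scalings). As deposited, the lower genes included enzymes that make or remove the glucose read by calreticulin and calnexin. The genes of this list named below were not called under either scaling. Uggt1, which puts the glucose back on unfolded glycoproteins, measured 122, 92.8 and 81.0 in fed and 23.7, 59.7 and 69.5 in fasted rats (log2 change -1.07). Fasted replicate 1 was far below the others there too, and without it the log2 change of Uggt1 was -0.59. Uggt1 was not called under either scaling, nor without fasted replicate 2 or any 1 fed replicate (unadjusted p of 0.0539 to 0.139 by limma). Prkcsh, the noncatalytic subunit of glucosidase II, had a log2 change of -0.63, and -0.52 without fed replicate 1 and -0.56 without fasted replicate 2, where it fell short of 1.5-fold. Man1b1, an ER mannosidase, had one of -0.68, and -0.55 without fasted replicate 1. Neither was called under the scalings, with log2 changes of -0.51 and -0.39 for Prkcsh and -0.55 and -0.44 for Man1b1. Edem1, which passes misfolded glycoproteins on to degradation, missed 1.5-fold (-0.58), and reached it without fed replicate 1 or 2 or fasted replicate 2 or 3 (-0.60 to -0.71). The count of lower genes in this list was 4 with quantile normalization, 2 with a common 75th percentile, 3 without fed replicate 1 and 4 without fed replicate 2 or 3. Of 8 other calcium-binding proteins of the secretory pathway 2 were lower and 0 higher, and the median was -0.17 (0.012 and 0.078 under the scalings, and -0.34 without fed replicate 3). Nucb2 passed (-0.94), and Nucb1 (-0.52) and Sdf4 (-0.23) did not. The count was 1 without fed replicate 1 or 3.

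Prolyl isomerases outside the ER were measured as a counterpart to the 4 members of that activity. Of 22 such genes 20 had a negative log2 change, beside 9521 of all 14217 genes. Of the 22, 3 were lower and 0 higher, and the median was -0.44 (-0.22 and -0.20 under the scalings, and -0.27 without fasted replicate 1). Ppil3, a cyclophilin of the spliceosome, measured 67.5, 56.2 and 72.3 in fed and 24.2, 31.2 and 35.2 in fasted rats, a log2 change of -1.12. Fkbp15 had a log2 change of -0.72, and was not called under the scalings (-0.48 with either) or without fed replicate 3 (-0.58). Fkbp5, a cochaperone of the glucocorticoid receptor that glucocorticoids induce, measured 219, 245 and 209 in fed and 318, 270 and 310 in fasted rats, and its log2 change of 0.42 (adjusted p = 0.228 from limma) did not reach 1.5-fold. Here the count of lower genes was 1 after either scaling and without fed replicate 3. It was 8 without fasted replicate 3, where 17.9% of all probe sets were lower. Fkbp5 was called higher with a common 75th percentile (0.66).

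Among 7 further measured isomerases and relatives of the members in the secretory pathway 2 were lower and 1 was higher, and the median was -0.27 (-0.037 and -0.022 under the scalings, -0.059 without fed replicate 3 and -0.44 without fed replicate 2). Fkbp7 measured 50.3, 41.2 and 41.8 in fed and 21.1, 27.4 and 26.1 in fasted rats (log2 change -0.84). Creld1, the membrane-bound relative of Creld2, had a log2 change of -0.75, and -0.45 without fasted replicate 1, and was called neither there nor under the scalings (-0.53 and -0.51) nor without any 1 fed replicate. The higher gene was Crtap, a partner of Ppib in collagen modification, with 1.70 to 4.28 in fed and 4.07 to 8.60 in fasted rats, near the floor of 3.27 that was set on intensities. Ppic and Fkbp10 were also near that floor. The count of lower genes was 1 after either scaling and without fasted replicate 1 or any 1 fed replicate, and Crtap did not pass without fed replicate 1 or 3 or without fasted replicate 1 or 3.

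Of 19 measured regulators of the UPR and of ER-associated degradation 2 were lower and 1 was higher, and the median of -0.19 was that of all genes (-0.043 and 0.053 under the scalings). Syvn1, the ubiquitin ligase of ER-associated degradation, measured 376, 231 and 296 in fed and 140, 158 and 174 in fasted rats (log2 change -0.91). Herpud1, a UPR target that assists this ligase, had a log2 change of -0.41 and did not pass. Trib3, a target of the ATF4 branch, went the other way, with 208, 190 and 189 in fed and 459, 230 and 302 in fasted rats (log2 change 0.70, and 0.43 without fasted replicate 1), but did not pass without fasted replicate 1 or 3 or without any 1 of the fed replicates. The count of lower genes was 1 without fed replicate 1 or 3 or fasted replicate 1 or 2. It was 4 without fasted replicate 3, where 17.9% of all probe sets were lower. Xbp1, the transcription factor of the IRE1 branch, had a log2 change of -0.19.

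**Figure D5:**
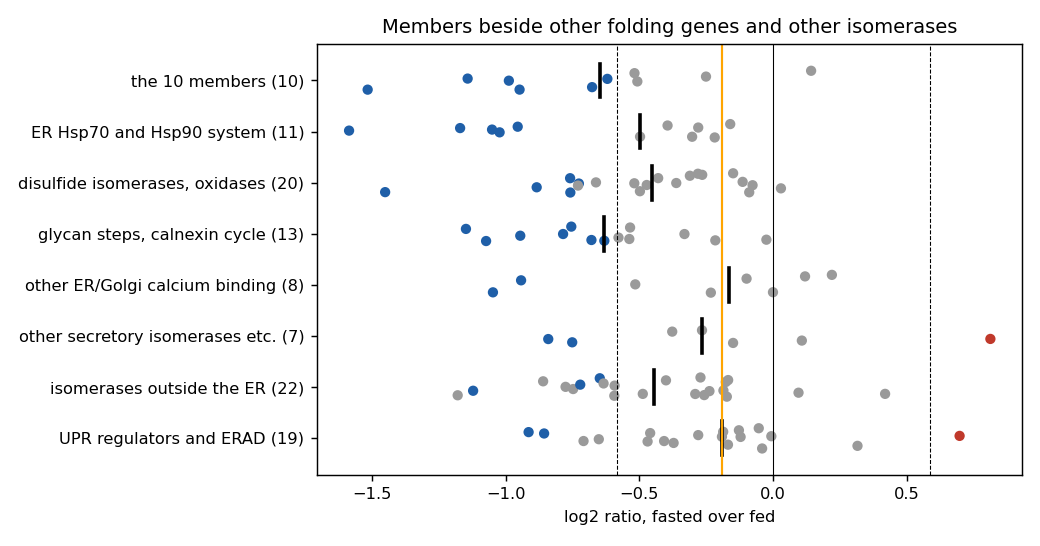
Log2 ratio of fasted over fed for each measured gene (points) of the members and of 7 other lists, with the number measured in brackets; blue points passed both thresholds as lower, red as higher, grey points did not pass, black bars are list medians, dashed lines mark 1.5-fold and the orange line is the median of all genes, -0.19. Blue points reach farthest left for Sdf2l1 (-1.59) and Fkbp11 (-1.52), and the UPR regulators lie around the orange line.

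Some genes outside the 10 followed the same course over the arrays. The likeness was measured as the root mean square difference between the log2 profile of a gene over the 6 arrays, around its own mean, and the median profile of the members, for 9188 genes brighter than the median probe set. The closest was Golm2, a Golgi membrane protein, with a difference of 0.037, and intensities of 833, 687 and 811 in fed and 449, 536 and 518 in fasted rats. The next were Ssr4, a subunit of the translocon-associated TRAP complex (0.042), Srprb, a subunit of the signal recognition particle receptor (0.044), Wdr46, a nucleolar protein (0.047), and Scfd1, a regulator of membrane fusion between ER and Golgi (0.049). The members' own median profile was 0.46, 0.19 and 0.39 on the fed arrays and -0.49, -0.26 and -0.30 on the fasted ones, as log2 deviations. With 6 arrays and this many genes, close matches are found for many profiles, and no test was made.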

How the data were processed

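Beta cells of fed and 24 h fasted rats were compared, 3 arrays each. The deposited values are linear intensities, 1 column per sample. The authors computed them in dChip by its probe model, with all arrays normalized to the one of median intensity and mismatch signal as background (version not given in the sources used here).

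Besides 57 controls, 31042 probe sets were used: 20826 with 1 gene symbol (14217 genes), 436 with several and 9780 with none. Only the first were named. A floor was set at the 10th percentile of all intensities (3.27), and the log2 table was fitted whole with limma 3.58.1 (R 4.3.3; lmFit, eBayes with trend, 2 groups, no block, two-sided, Benjamini-Hochberg over 31042). No value of a member's brightest probe set was below the floor. Means and intervals rest on arrays, whose number limits the precision. Replicates are independent isolates, as the labels say.

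The members, lists, tests and alternatives were chosen with earlier results of these data known. Named besides the members were the 3 genes of each list with the largest absolute moderated t, the 5 genes of nearest profile, marker genes, and, chosen after their values were seen, Hspa5, Uggt1, Xbp1, Ppic and Fkbp10. Markers of 8 cell types were fixed, of which alpha, delta and PP, duct, immune, endothelial and stromal lists had 0 lower genes and 1 higher (duct). The fit was run on simulated arrays with independent noise and no shift of a whole array, unlike the real ones. Of 100 probe sets changed 1.5-fold, 53% had an unadjusted p under 0.05 in the right direction and 2% an adjusted one (limma). At 3-fold these were 96% and 37%. Of the unchanged probe sets 5.65% had an unadjusted p under 0.05. Promoter windows came from RefSeq (GRCr8), matched by gene number. Python 3.11.15 and matplotlib 3.10.9 were used. The alternatives are given at the end, where those on other probe sets, on the mean of the other members, on named pathway genes and on the share of all genes without overlap under the scalings were added after seeing the data.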

Additional observations from a re-analysis of the deposited data

How the results depend on the processing

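Under 17 other settings the count of lower members was 4 to 8, and the count of higher members 0 under each. Shares of all tested probe sets that were lower in the same setting stand in brackets. The count of lower members was 4 with quantile normalization (4.82%), with a common 75th percentile (4.27%) and with linear means of unequal variances (5.23%). It was 5 with probe sets of a gene averaged (8.50% of the averaged table). Leaving out 1 replicate gave 4 without fed replicate 1 (4.66%) or 3 (5.72%), and 8 without fasted replicate 2 (5.50%). It gave 6 without fed replicate 2 (6.43%), fasted replicate 1 (5.44%) or fasted replicate 3 (17.9%). Under the remaining settings the count was 6 (6.59% to 22.4%). Of 170 member values 11 no longer passed the thresholds, 2 passed newly and 1 reversed, Mesd with its probe sets averaged (-0.034). Relative to the other members, Creld2 turned from -0.15 to 0.24 in that same setting, and Fkbp2 moved from 0.15 to 0.72. The log2 changes of Fkbp2 and Canx were then -0.36 and -0.37. Against the mean of the other members in place of their median, Fkbp2 turned from 0.15 to -0.32 and Ppib from 0.23 to -0.27. With the replicate number as a block 6 members were lower and no member's call changed. Same-numbered arrays did not deviate together (correlations of 0.00012, 0.011 and -0.053), so no pairing by number was seen. With 3 arrays per group this check cannot show that the isolates were not paired in the work. An adjusted p under 0.05 from limma was reached by Fkbp11, Ppib, Calr and Creld2 with a pseudocount, with dim probe sets left out and with robust variance, against 83, 124 and 88 of all probe sets tested (0.267%, 0.799% and 0.283%). With array weights it was reached by 7 members, among them Mesd with a positive change (0.21), but also by 9973 of all probe sets (32.1%), and the estimation of these weights did not converge and gave 1 array most of the weight. Over all probe sets 2616 were lower, against 1495 with quantile normalization, 1326 with a common 75th percentile, 1625 with linear means and 6956 with array weights. Without fed replicate 1, 2 or 3 the counts were 1448, 1997 and 1775. Without fasted replicate 1, 2 or 3 they were 1690, 1706 and 5562. The cause of these differences was not tested. Low signal limits Fkbp14 and the dimmest probe sets of Fkbp2 and Mesd.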

Other observations

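Outside the members, 18 genes had a promoter window with the full ERSE, and 14 of them were measured. By the rule used for the members 2 were lower and 1 was higher, the other 11 were not called, and the median was -0.23 on the log2 scale. Over all genes 9.51% were lower and the median was -0.19. The lower genes were Hsp90b1, an ER chaperone (log2 change -1.02), and Dnajc3 (-0.95), and the higher one was Foxd4 (1.01), a transcription factor gene. Hspa5, Xbp1 and Ero1b, which also hold the element, had log2 changes of -0.30, -0.19 and -0.52 and did not pass. Among the members that hold it, the log2 change was -1.14 for Creld2, -0.62 for Calr and -0.25 for Canx, and Fkbp11, with the largest fall of the members, had no full element in its window. These genes were looked up after the members' values were known, and no test was made.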
